A study of Mus musculus with 10 samples.

Results

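The miR-30 family was followed through small RNA libraries of mouse splenic B-cells. Its members were a list of 7 rows, chosen by name among the microRNA rows mmu-miR-30a to mmu-miR-30e of the count table. That table has 2015 rows in the microRNA class and 6968 features in all. The minor arms of these hairpins are not on the list and are given near the end. They comprise 5 mature microRNAs from the 5p arm (mmu-miR-30a-5p, mmu-miR-30b-5p, mmu-miR-30c-5p, mmu-miR-30d-5p and mmu-miR-30e-5p) and 2 from the 3p arm (mmu-miR-30a-3p and mmu-miR-30e-3p). The prefix for mouse is left out below. All 7 passed the filter on low counts in each comparison.

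The study asked how the enhancers at either end of the immunoglobulin heavy chain (IgH) locus act in B-cells. CD43- splenic B-cells came from wild-type (wt) mice, from 3'RR-deficient mice, which lack the regulatory region downstream of the IgH constant genes, and from Eµ-deficient mice, which lack the intronic IgH enhancer. Depletion of CD43+ cells leaves mainly resting mature B-cells, and every group shares this step. Cells of each genotype were kept for 2 days in medium alone (non-stimulated) or with 5 µg/ml of lipopolysaccharide (LPS), a bacterial ligand of Toll-like receptor 4 that makes B-cells divide and switch antibody class. The study's methods instead describe cells taken before and after stimulation, so an effect of LPS and an effect of culture cannot be told apart if that held for these libraries. Each library pooled cells of 2 mice, so that a replicate is a pool. By those methods, the non-stimulated and LPS pools of a genotype may come from the same mice. The labels do not say so, and the fits treat the pools as separate. The wt and 3'RR-deficient groups had 2 libraries per condition and the Eµ-deficient mice 1. Mice of every genotype were young adults of both sexes on a 129 strain background. The study also describes the Eµ-deficient line as short of follicular B-cells.

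A microRNA is cut from a hairpin precursor, and the arm that enters the Argonaute protein guides it to messenger RNAs, mainly by pairing of bases 2 to 8, the seed. MicroRNAs with one seed are grouped as a family because they can pair with the same sites. The miR-30 hairpins are widely expressed, and their 5p arms usually dominate. miR-30a is known for acting on the messenger RNA of Beclin 1, a protein of autophagy. No target was measured in these libraries.

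The mature sequences show why the family splits by arm and why its members are hard to keep apart. RefSeq (GRCm38.p6) held 5 of the 7 members, and miR-30b-5p and miR-30d-5p are named without sequence. They are printed 5′ to 3′ with the seed in capitals:

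miR-30a-5p: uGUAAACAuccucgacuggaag
miR-30e-5p: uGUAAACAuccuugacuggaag
miR-30c-5p: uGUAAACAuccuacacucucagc
miR-30a-3p: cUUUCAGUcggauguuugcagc
miR-30e-3p: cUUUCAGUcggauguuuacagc

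The 3 printed 5p members share the seed GUAAACA, and both 3p members share UUUCAGU. Among 1679 mature mouse microRNAs of the same table, 4 had the first seed (0.238%) and 2 the second (0.119%). Positions are counted from 1 at the 5′ end. miR-30a-5p and miR-30e-5p differ by 1 base, C13U, and their 3p arms also by 1 base, G18A. From miR-30a-5p, miR-30c-5p differs at 5 of the shared positions (C13A, G14C, G18C, G19U and A20C) and is 1 base longer. How the authors assigned reads that match more than one of these sequences is not stated, so the split between miR-30a and miR-30e is uncertain.

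The genes lie in 3 places (GRCm38, GENCODE M21). miR-30a-5p is at chr1:23272274-23272295 and miR-30a-3p at chr1:23272315-23272336, both on the plus strand within the hairpin gene Mir30a and in no other annotated gene. miR-30e-5p (chr4:120772660-120772681) and miR-30e-3p (chr4:120772618-120772639) are on the minus strand within an intron of Nfyc, which encodes a subunit of the transcription factor NF-Y. miR-30c-5p has one mature sequence and 2 genes. One copy, Mir30c-1 at chr4:120769584-120769606, lies in an intron of Nfyc as well, and the other, Mir30c-2 at chr1:23291714-23291736, lies in an exon of the long non-coding RNA Gm27028. The count table has one row for it, with the chromosome 4 position only, and how reads of the 2 copies were counted there is not stated. The table puts miR-30b-5p at chr15:68337469-68337490 and miR-30d-5p at chr15:68341257-68341278, both on the minus strand, the latter in an exon of the long non-coding RNA Gm20732.

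Depth was between 3482540.0 and 18144016 counts per library, of which 2225722 to 12377000.0 fell in the microRNA class. The lowest microRNA counts, 2225722 and 2534419, belonged to the second non-stimulated libraries of wt and 3'RR-deficient cells, and the other 8 libraries held at least 4145232. Over the 720 features tested, the difference between replicate 2 and replicate 1 correlated between these genotypes at r = 0.666 in non-stimulated cells, against 0.111 with LPS, a description without a test. These 2 libraries stand apart for the miR-30 members too, so each comparison is given with and without them. Marker lists were summed in CPM (counts scaled for depth with TMM factors over all 10 libraries). The lymphocyte list, a check of 4 microRNAs (miR-150-5p, both arms of miR-142a and miR-181a-5p), reached 53612 to 249458 CPM, and all were present. Of these, miR-142a-5p alone ran from 6191 to 177521 CPM, so the sum is no measure of lymphocyte number. The myeloid list (miR-223, 2 of 2 arms detected) reached 82.4 to 5032 CPM and the erythroid list (4 of 4 detected) 167 to 9290 CPM.

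The family was abundant in every library. The 7 rows took between 4.26% (Wilson 95% interval 4.23 to 4.28) of microRNA counts in wt non-stimulated replicate 2 and 6.89% (6.87 to 6.90) in replicate 1 of the non-stimulated 3'RR-deficient pools. Such intervals reflect counting error alone, as reads copied by PCR are not separate molecules. A count of 3 corresponded to 0.242 to 1.35 CPM, far under the level of each member.

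Over the 10 libraries, the means fell into steps. All members are 22 or 23 bases long, so no length correction was applied, and adapter ligation, which differs between microRNAs, was not measured. miR-30a-5p (19148 ± 6864 CPM, SD, n = 10) and miR-30d-5p (18904 ± 6278) led the family, and miR-30a-5p was the higher of the pair in 4 of 10 libraries. miR-30c-5p (8399 ± 4553) and miR-30e-5p (7837 ± 4591) came next, in that order in 6 of 10. miR-30b-5p (1772 ± 1100) and miR-30e-3p (1772 ± 676) had nearly one mean, with miR-30b-5p higher in 4 of 10. miR-30a-3p was lowest, at 589 ± 218 CPM. Over all 10 libraries, neighbours within each of these 3 pairs did not differ beyond their spread. The order of the more abundant pairs varied with condition. miR-30c-5p exceeded miR-30e-5p in every non-stimulated library and in the Eµ-deficient LPS library. In each other LPS library, miR-30e-5p was the higher. miR-30a-5p exceeded miR-30d-5p in LPS libraries only, and there in all but replicate 1 of the 3'RR-deficient pools. These orders do not depend on scaling and were not tested. In 10 of 10 libraries, miR-30d-5p exceeded miR-30c-5p, miR-30e-5p exceeded miR-30b-5p and miR-30e-3p exceeded miR-30a-3p.

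**Figure D1:**
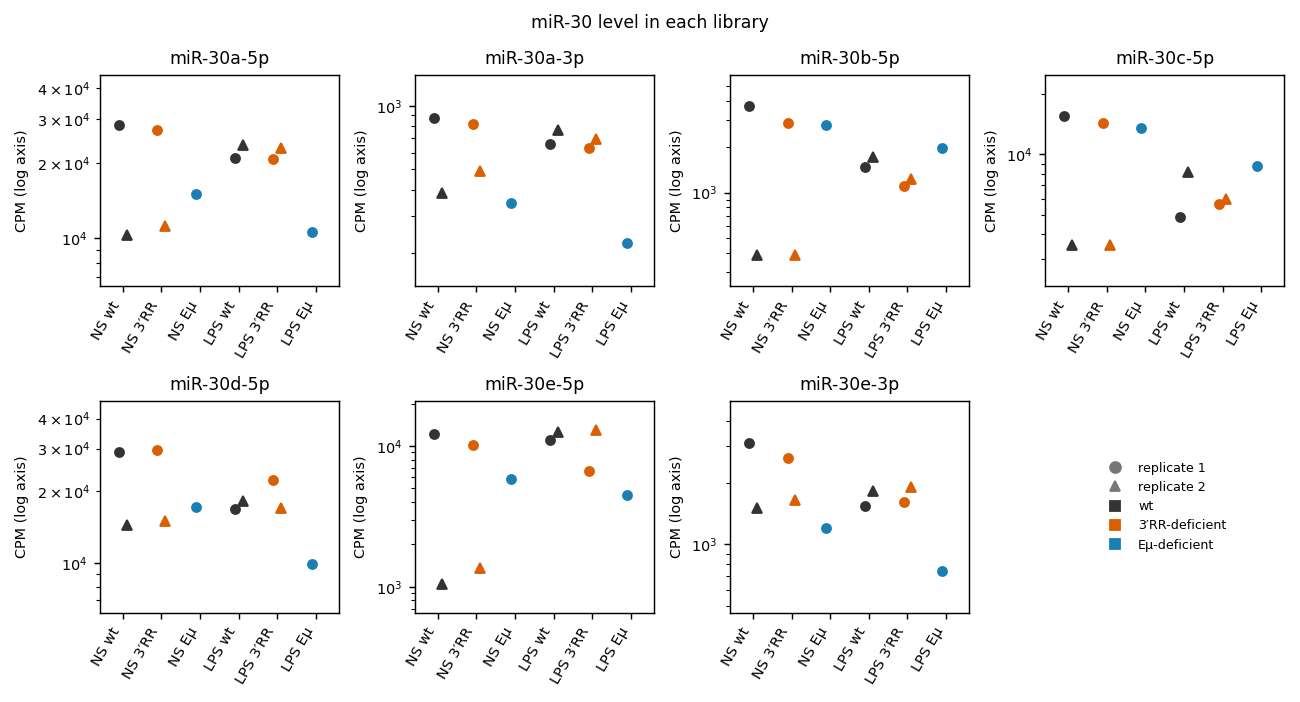
CPM of each member (log axis) in the 10 libraries, by condition (NS, non-stimulated) and genotype; circles are replicate 1 and triangles replicate 2, with no error bars since each point is 1 library. For all 7 members, the second non-stimulated libraries of wt and 3'RR-deficient cells sit below the first ones, most clearly for miR-30e-5p (1051 and 1359 against 12212 and 10184 CPM).

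miR-30a-5p was at 28392 and 10296 CPM in wt non-stimulated replicates 1 and 2, and at 27201 and 11204 CPM in the 3'RR-deficient ones. With LPS, it was at 21048 and 23719 CPM in wt and at 20760 (replicate 1) and 23132 (replicate 2) CPM in the 3'RR-deficient pools. The Eµ-deficient libraries had 15132 CPM without and 10596 CPM with LPS. The LPS libraries of wt and 3'RR-deficient cells thus lay between the first and second non-stimulated ones, and the Eµ-deficient LPS library was near the low end.

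miR-30d-5p, encoded on chromosome 15, followed a like course. Without LPS, it was at 28951 and 14393 CPM in wt and at 29662 and 14964 CPM in the 3'RR-deficient pools. With LPS, it was at 16805 and 18125 CPM in wt and at 22121 and 16964 CPM in the 3'RR-deficient pools. The Eµ-deficient values were 17080.1 CPM without and 9975 CPM with LPS, the latter being the lowest of the 10.

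miR-30c-5p was the member with the most even high values in the 3 first non-stimulated libraries, namely 15615 CPM in wt, 14369 in 3'RR-deficient and 13470.2 in Eµ-deficient cells. The second libraries had 3529 CPM in wt and 3534 CPM in the 3'RR-deficient pools. With LPS, miR-30c-5p was at 4888 and 8216 CPM in wt, at 5657 and 5991 CPM in 3'RR-deficient and at 8721 CPM in Eµ-deficient cells. Its LPS values were above the second and below the first non-stimulated libraries.

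miR-30b-5p had the same layout at a lower level. It was at 3745.0 and 389 CPM in wt non-stimulated replicates 1 and 2, at 2889 and 388 CPM in 3'RR-deficient ones and at 2797 CPM in Eµ-deficient cells. After LPS, miR-30b-5p was at 1464 and 1722 CPM in wt, at 1106 and 1237 CPM in 3'RR-deficient and at 1982 CPM in Eµ-deficient cells. Across the 10 libraries, log2 CPM of miR-30b-5p and miR-30c-5p correlated at r = 0.941, the highest of the 21 pairs of members (lowest 0.187, median 0.616). The points share libraries, depth and scaling, and r is given as a description.

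miR-30e-5p was at 12212 and 1051 CPM in wt non-stimulated replicates 1 and 2 and at 10184 and 1359 CPM in the 3'RR-deficient ones. With LPS, it was at 10941 and 12645 CPM in wt and at 6638 and 13068 CPM in the 3'RR-deficient pools. The Eµ-deficient libraries had 5793 CPM without and 4474 CPM with LPS. The ratio of its highest to its lowest value was the widest among the members, and the first non-stimulated libraries overlapped those with LPS.

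The 3p arms stood at lower levels. miR-30e-3p was at 3121 and 1500 CPM in wt and at 2622 and 1652 CPM in the 3'RR-deficient pools without LPS, and with LPS at 1544 and 1828 CPM in wt and at 1601 and 1897 CPM in the 3'RR-deficient pools. The Eµ-deficient values were 1203 CPM without and 746 CPM with LPS, the lowest of the 10. miR-30a-3p was at 878 and 386 CPM in wt and at 817 and 491 CPM in the 3'RR-deficient pools without LPS. After LPS, miR-30a-3p was at 656 and 772 CPM in wt and at 629 and 693 CPM in the 3'RR-deficient pools. In Eµ-deficient cells it was at 348 CPM without and 224 CPM with LPS, and both are below all 8 other libraries.

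The first comparison asked whether LPS changed the family. In the main fit, which has no replicate block, it did not do so past the threshold of an adjusted p of 0.05 (edgeR's quasi-likelihood test, two-sided, Benjamini-Hochberg over 720 features). Over wt and 3'RR-deficient cells, 0 of 7 members were called, beside 157 of 720 features (21.8%), and no member had an unadjusted p under that level. Of the members, 3 had a positive and 4 a negative estimate, with a median log2 fold change of -0.23 beside 0.07 for all features. The groups of 4 libraries overlapped for 7 of 7 members, whereas among all features LPS libraries lay wholly above in 18.9% and wholly below in 12.9%. The result depended on the model. A replicate block within culture condition called miR-30e-5p (log2 fold change 1.52, edgeR adjusted p = 1.18e-05), beside 46.7% of all features. Replicate numbers were not taken as pairing the samples.

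The estimates were wide. miR-30e-5p was 1.75 times as high with LPS (log2 fold change 0.80, SE 0.73, edgeR adjusted p = 0.456), with a 95% interval of -0.80 to 2.41 on the log2 scale. For miR-30c-5p the log2 fold change was -0.58 (SE 0.56, interval -1.80 to 0.65, adjusted p = 0.48). miR-30b-5p had -0.41 (SE 0.69, interval -1.93 to 1.12). For miR-30a-5p the estimate was 0.21 (SE 0.46) and for miR-30d-5p -0.23 (SE 0.43). The 3p arms gave 0.10 for miR-30a-3p (SE 0.40) and -0.37 for miR-30e-3p (SE 0.39). The interval reached a 2-fold change in at least one direction for 6 of 7 members.

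These values depended on the non-stimulated libraries. Leaving out replicate 1 of wt or of 3'RR-deficient cells gave miR-30e-5p 1.59 and 1.62, and leaving out replicate 2 gave 0.42 and 0.34. For miR-30c-5p the same 4 estimates were -0.13 and -0.026 without a first and -0.87 and -1.01 without a second library, and none passed the threshold. Those of miR-30b-5p changed sign, at 0.31 and 0.41 without a first and -0.78 and -0.89 without a second library. Without both second libraries, all 7 estimates were below 0 and 2 members passed the threshold, beside 204 of 720 features (28.3%). miR-30c-5p fell to 0.421 of its non-stimulated level (log2 fold change -1.25, SE 0.29, adjusted p = 0.00849). miR-30b-5p fell to 0.425 (log2 fold change -1.23, SE 0.27, adjusted p = 0.00601). miR-30e-3p had -0.71 (adjusted p = 0.074) and miR-30d-5p -0.61 (adjusted p = 0.143), and miR-30a-5p, miR-30a-3p and miR-30e-5p had -0.29, -0.27 and -0.04. In these 6 libraries, the LPS values lay wholly below for 6 of 7 members, the exception being miR-30e-5p. A share of 26.7% of all features lay wholly below in the same way and 26.5% wholly above. With all 8 libraries and no replicate block in the fit, neither of the called members passed. The 2 libraries left out were the lower non-stimulated ones for all 7 members and were set apart partly on these values. Leaving them out therefore lowers the LPS estimates of itself, and the adjusted p of that fit is not independent support for a fall. A fit without both first libraries was not run.

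The marker lists also differed by condition in wt and 3'RR-deficient cells. The myeloid list went from 479 to 1990 CPM without LPS to 82.4 to 147 with it, and the erythroid list from 2530 to 6670.0 CPM to 167 to 1150 CPM. The stromal list (4 microRNAs) reached 169 to 962 CPM without and 18.2 to 67.7 CPM with LPS, where 1 of 4 was at 0. The endothelial list (2 microRNAs) overlapped between conditions, at 25.3 to 141 CPM and 40.9 to 78.6 CPM. The lymphocyte list was also lower with LPS, at 60539 to 99685 CPM against 104215 to 249458. Their part in the miR-30 values was not tested. In a bulk library, fewer cells of a type and less RNA per cell cannot be told apart.

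Within one genotype, no member was called in any fit without a replicate block. The background counts varied among those fits, from 0 to 35 features in wt and from 0 to 28 in 3'RR-deficient cells when 1 library was left out, and to 103 and 97 in the DESeq2 Wald test, with 0 members called in each. In wt, LPS gave 0 of 7 (5 of 720 features, 0.694%) with estimates of -0.47 to 0.95 and a median of -0.24. In 3'RR-deficient cells, it gave 0 of 7 (7 of 720, 0.972%) with estimates of -0.69 to 0.65 and a median of -0.22. Without both second non-stimulated libraries, wt gave 0 of 7 members beside 87 of 720 features (12.1%), with estimates of -1.18 to 0.03 and a median of -0.64. 3'RR-deficient cells then gave 0 of 7 beside 69 of 720 (9.58%), with estimates of -1.32 to -0.11 and a median of -0.59, and the lone non-stimulated library of each genotype is assumed to vary like the other groups. Leaving out a first library instead put all 7 estimates above 0, with a median of 0.82 in wt (without wt non-stimulated replicate 1) and of 0.70 in 3'RR-deficient cells (without their non-stimulated replicate 1), so that the direction depended on which non-stimulated library was kept. A direct test of whether wt and 3'RR-deficient cells responded differently to LPS called 0 of 7 members and 0 of 720 features (0.0%, with 5 features at an unadjusted p under 0.05). For the members that difference was between -0.30 and 0.03 on the log2 scale, with a median of -0.22. Leaving out both second non-stimulated libraries gave -0.17 to 0.20, again with 0 members and 0 features (0.0%) called and 14 features at an unadjusted p under 0.05. Leaving out 1 non-stimulated library moved it further and to one side for all 7 members. The median was -0.92 without replicate 1 and 0.39 without replicate 2 of wt, and 0.65 and -0.58 without those of 3'RR-deficient cells, with members between -2.77 and 1.83 over all libraries left out in turn.

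No member differed past the threshold between 3'RR-deficient and wt cells. Over both conditions, 0 of 7 were called in 3'RR-deficient against wt cells, beside 1 of 720 features (0.139%). The estimates were between -0.28 and 0.19 on the log2 scale, with a median of 0.05. The lowest, for miR-30b-5p, had an interval of -1.80 to 1.25, and the highest, for miR-30d-5p, one of -0.75 to 1.14, and the interval reached a 2-fold difference for 5 of 7 members. Without LPS, 0 of 7 members and 0 of 720 features (0.0%) were called, with 9 features at an unadjusted p under 0.05 and member estimates of -0.13 to 0.20. With LPS, 0 of 7 members and 0 of 720 (0.0%) were called, with 15 features at that level and member estimates of -0.43 to 0.20. Without both second non-stimulated libraries, member estimates were -0.35 to 0.21 over both conditions (2 of 720 features called, 0.278%), -0.24 to 0.17 without LPS (0 of 720, 0.0%, with 17 at an unadjusted p under 0.05) and -0.40 to 0.23 with LPS (2 of 720, 0.278%), and 0 members were called in each. With 1 non-stimulated library left out, the estimates without LPS were above 0 for all 7 members when it was replicate 1 of wt (median 0.91) or replicate 2 of 3'RR-deficient cells (0.54), and below 0 for all 7 when it was replicate 2 of wt (-0.34) or replicate 1 of 3'RR-deficient cells (-0.66), with members between -2.25 and 2.48. Over both conditions the median was then 0.37 without replicate 1 of wt and -0.27 without replicate 1 of 3'RR-deficient cells, and no member was called.

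**Figure D2:**
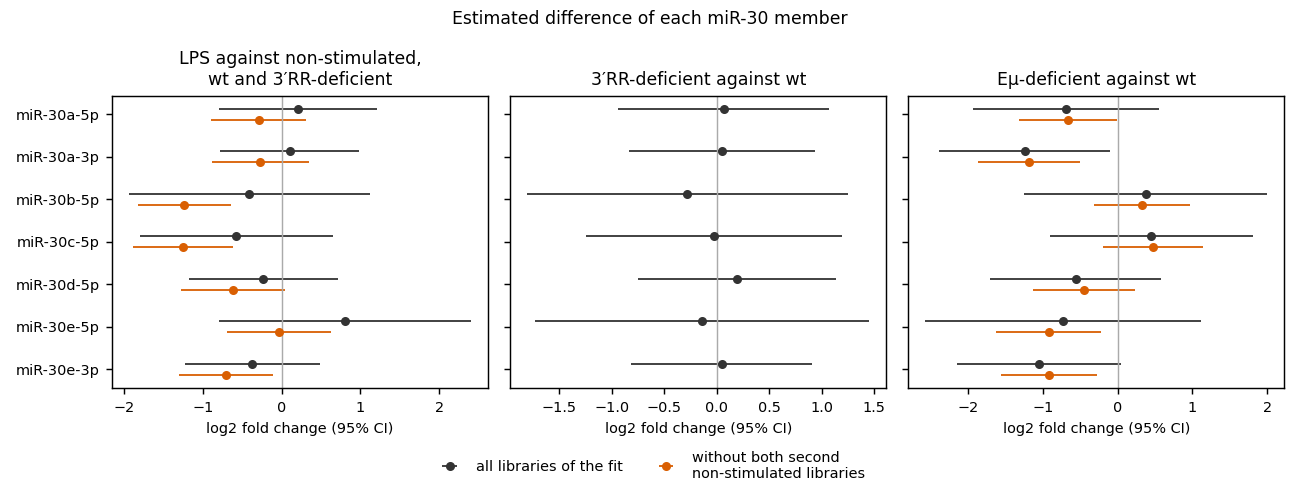
Log2 fold change of each member with its 95% confidence interval (CI) in 3 comparisons; black points use all libraries of the fit and orange points leave out both second non-stimulated libraries (not drawn for 3'RR-deficient against wt). In the LPS comparison the orange intervals of miR-30b-5p (-1.82 to -0.65), miR-30c-5p (-1.88 to -0.61) and miR-30e-3p (-1.30 to -0.11) leave out 0, and no black interval does. The libraries left out had the lower non-stimulated values for every member.

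In Eµ-deficient cells, member estimates lay on both sides of 0 and none passed the threshold with all 10 libraries and no replicate block. Since each condition had 1 library, the comparison with wt used both conditions, in a fit of all 10 libraries, and it shares the wt libraries with the comparisons above. No member was called (0 of 7), beside 16 of 988 features (1.62%). A replicate block within culture condition called 4 of 7, all lower, beside 10.6% of all features. miR-30a-3p was at 0.423 of the wt level (log2 fold change -1.24, SE 0.54, unadjusted p = 0.0351, adjusted p = 0.373 in edgeR), with -0.62 without the Eµ-deficient LPS and -1.63 without the Eµ-deficient non-stimulated library. miR-30e-3p was at 0.482 (log2 fold change -1.05, SE 0.51, adjusted p = 0.463). The 5p members of the same hairpins had -0.69 (miR-30a-5p, SE 0.58) and -0.73 (miR-30e-5p, SE 0.87), and miR-30d-5p had -0.56 (SE 0.54). Without the Eµ-deficient LPS library, miR-30a-5p had -0.079, miR-30e-5p 0.060 and miR-30d-5p -0.029. miR-30b-5p and miR-30c-5p were above 0, at 0.38 (SE 0.76) and 0.45 (SE 0.64). Both depended on the wt non-stimulated libraries, with 1.32 and 1.17 without replicate 1 and 0.015 and 0.16 without replicate 2.

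The median of all features in this fit was -0.17 and became 0.20 with total counts as the scaling. With that scaling, miR-30a-3p was at -0.89, miR-30e-3p at -0.70 and miR-30c-5p at 0.90. Subtracting the median of all features took out most of the shift between scalings. With TMM it left -1.07, -0.88 and 0.62, and with total counts -1.095, -0.905 and 0.699. Without both second non-stimulated libraries, miR-30a-3p passed the threshold (log2 fold change -1.18, SE 0.32, adjusted p = 0.0277), beside 79 of 988 features (8.0%), and the other 6 members did not. The median of the members was -0.69 with all 10 libraries, -0.12 without wt non-stimulated replicate 1, -0.95 without wt non-stimulated replicate 2, -1.07 without the Eµ-deficient non-stimulated and -0.029 without the Eµ-deficient LPS library.

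With LPS, the Eµ-deficient library lay outside the 4 other LPS libraries for all 7 members, below them for 5 and above them for miR-30b-5p and miR-30c-5p. Of all features, 20.3% lay below and 27.4% above in the same way. Without LPS, it lay below the 4 others for miR-30a-3p and miR-30e-3p and above them for 0 of 7 (16.1% and 22.7% of all features). The Eµ-deficient libraries also carried the highest myeloid and erythroid sums of their condition. The myeloid list was at 5032 CPM without and 512 CPM with LPS, and the erythroid list at 9290 and 4076 CPM. The stromal list was at 541 and 950 CPM, and the lymphocyte list at 81655 and 53612 CPM, the lowest of each condition. The endothelial list was at 79.2 CPM without and at 20.8 CPM with LPS, the latter below the 9 other libraries. The microRNA class took 60.2% of all counts without LPS (63.9 to 82.1% in the other non-stimulated libraries) and 51.4% with it (68.5 to 75.9%). Their part in the Eµ-deficient values was not tested, and 1 library per condition gives no replicate of the genotype within a condition.

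**Figure D3:**
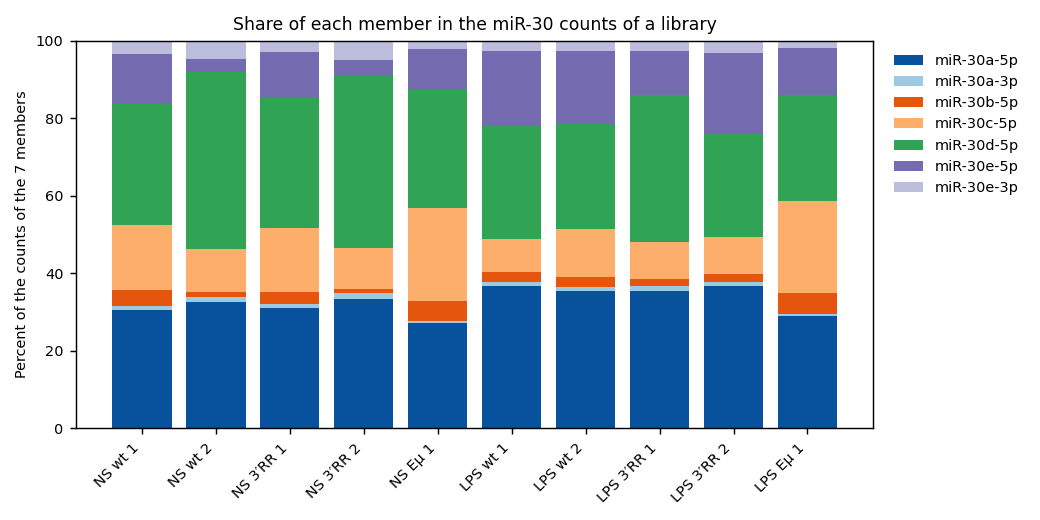
Share of each member (percent, stacked to 100) in the counts of the 7 members, in each library (NS, non-stimulated; the last digit is the replicate). In the second non-stimulated libraries miR-30e-5p made up 3.33 and 4.05%, against 10.4 to 20.7% in the other 8, and in the Eµ-deficient libraries miR-30c-5p made up 24.1 and 23.8%.

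Shares within the family and ratios within a library do not depend on scaling. miR-30a-5p and miR-30d-5p made up 27.1 to 36.7% and 26.9 to 45.6% of the family counts over the 10 libraries. miR-30c-5p made up 8.52 to 24.1%, with both highest shares in the Eµ-deficient libraries. miR-30b-5p had 1.15 and 1.23% in the second non-stimulated libraries and 1.89 to 5.4% in the other 8. The 3p arms stayed small, with 2.03 to 4.92% for miR-30e-3p and 0.61 to 1.46% for miR-30a-3p.

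Arm use was read as the ratio of the 5p to the 3p count of one hairpin. For Mir30e it was 3.91 and 0.701 in wt non-stimulated replicates 1 and 2, and 3.88 and 0.823 in the 3'RR-deficient ones. After LPS, the ratio was 7.08 and 6.92 in wt and 4.15 and 6.89 in the 3'RR-deficient pools. In Eµ-deficient cells it was 4.82 without and 5.99 with LPS. In the second non-stimulated libraries the 3p arm thus outnumbered the 5p arm, which it did in none of the other 8. The mean log2 ratio was 2.61 ± 0.32 with LPS and 1.08 ± 1.36 without (SD, n = 5 each), a difference of 1.53. In an exact two-sided permutation test within genotype, this gave p = 0.0278, the smallest that 72 relabellings allow, and an adjusted p = 0.0833 over the 3 ratios tested. A ratio that reaches this floor alone cannot have a lower adjusted p, so it could not have passed the threshold by itself. Without the second non-stimulated libraries the difference was 0.54, with the same direction in the 3 genotypes.

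For Mir30a the 5p arm exceeded the 3p arm by 22.8 to 43.5 times without LPS and by 30.7 to 47.3 times with it. Without LPS it was 32.3 and 26.7 in the wt pools, and 33.3 and 22.8 where the 3'RR was missing. LPS pools had ratios of 32.1 and 30.7 (wt) and of 33.0 and 33.4 (3'RR-deficient). The Eµ-deficient libraries had both highest ratios, 43.5 without and 47.3 with LPS. The mean log2 ratio differed by 0.17 between conditions (exact permutation p = 0.222, adjusted p = 0.333), and the difference turned to -0.049 without the second non-stimulated libraries.

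The third ratio compared members of the chromosome 15 pair. miR-30b-5p was 0.129 and 0.0270 of miR-30d-5p in wt and 0.0974 and 0.0259 of it in the 3'RR-deficient pools, replicates 1 and 2 without LPS. LPS pools had 0.0871 and 0.0950 (wt) and 0.05002 and 0.0729 (3'RR-deficient). The Eµ-deficient libraries again had both highest values, 0.164 without and 0.199 with LPS. The difference of 0.41 in the mean log2 ratio was within the spread (exact permutation p = 0.5, adjusted p = 0.5), and it turned to -0.50 without the second non-stimulated libraries.

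**Figure D4:**
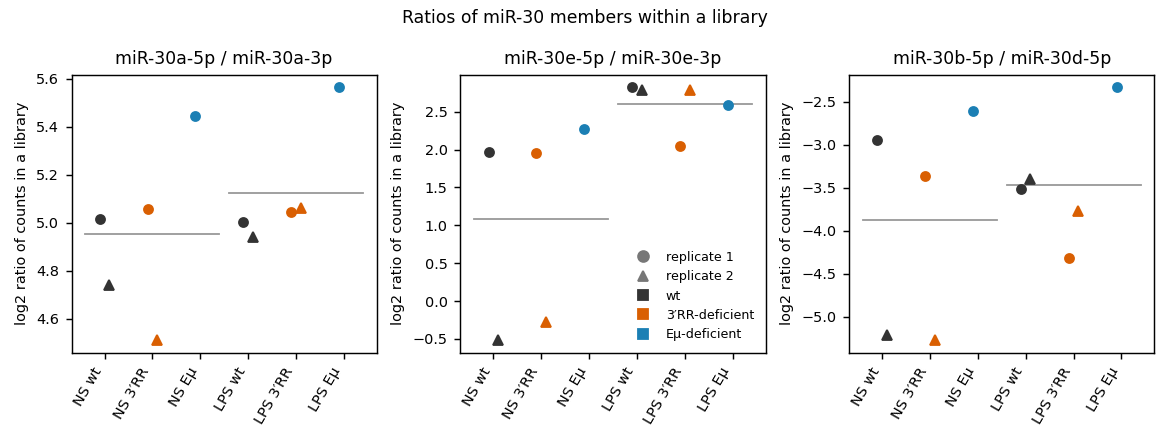
Log2 ratio of the counts of 2 members in each library, by condition (NS, non-stimulated) and genotype; circles are replicate 1, triangles replicate 2, and grey lines the mean of 5 libraries. The miR-30e-5p to miR-30e-3p ratio averaged 1.08 without and 2.61 with LPS, and the second non-stimulated libraries are the only points below 0 in that panel.

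The 1-base paralogues were compared in the same way. The count of miR-30a-5p was 9.80 and 8.24 times that of miR-30e-5p in the second non-stimulated libraries of wt and 3'RR-deficient cells, and 1.77 to 3.13 times in the other 8. For the 3p arms, miR-30a-3p was 0.257 to 0.425 of miR-30e-3p over all 10 libraries. In wt and 3'RR-deficient cells this 3p ratio was 0.257 to 0.311 without LPS and 0.365 to 0.425 with it, without overlap. The Eµ-deficient libraries had 0.289 without and 0.3 with LPS. This difference by condition was not tested. The second non-stimulated libraries thus lay outside the other 8 for the 5p ratio, and for the 3p ratio they had 0.257 and 0.297 against 0.281 and 0.311 in the first ones.

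The difference between the second and the first non-stimulated library differed by member in both genotypes. Replicate 2 minus replicate 1, in log2 CPM, was -3.33 (wt) and -2.96 (3'RR-deficient) for miR-30e-5p and -3.06 and -2.95 for miR-30b-5p. It was -1.94 and -2.07 for miR-30c-5p, and between -1.33 and -0.72 for the other 4. The median of all features was -0.33 and -0.16. Other measures also differed between these libraries, and their part was not tested. The microRNA class took 63.9 and 67.5% of all counts in the second and 81.0 to 82.1% in the first libraries. The lymphocyte list was at 104215 to 107837 CPM against 165672 to 249458, the myeloid list at 479 to 1042 against 1497 to 1990 CPM and the endothelial list at 25.3 to 41.2 against 61.2 to 141 CPM, whereas the erythroid list overlapped. With LPS, the same difference was between -0.71 and 0.65 for the members. Of the printed sequences, miR-30e-5p has the lowest GC content (40.9%) and miR-30a-3p the highest (50%). Over 497 mature microRNAs with a sequence, the same difference was higher by 1.05 (wt) and 0.865 (3'RR-deficient) per 10 percentage points of GC, and the slopes with LPS were -0.236 and -0.181. After removal of the GC trend from each library, 0 of the 5 members with a sequence were called with LPS (147 of 497 features, 29.6%), 3 had estimates above 0 and 2 below.

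The minor arms of the hairpins were scarce. miR-30b-3p had 121 to 397 counts and miR-30c-1-3p 121 to 299, against 3 to 236 for miR-30d-3p and 3 to 76 for miR-30c-2-3p. The last of these marks the Mir30c-2 copy on chromosome 1, and miR-30c-1-3p marks the copy in Nfyc. Of these 4 minor arms, which all passed the filter, 0 were called with LPS. miR-30c-2-3p came closest, at -2.19 on the log2 scale (SE 0.77, adjusted p = 0.0626) on LPS counts of 16 and 6 in wt cells, and of 3 and 12 in 3'RR-deficient cells. Without both second non-stimulated libraries it had -1.41 (SE 0.86, adjusted p = 0.236). In Eµ-deficient cells miR-30c-1-3p had -1.80 (SE 0.60, adjusted p = 0.181), and its sister copy miR-30c-2-3p 0.11 (SE 0.91). These became -1.26 (adjusted p = 0.0988) and 0.70 without both second libraries, and 0 of the 4 arms were called. miR-30f, on the strand opposite Mir30e, and the Mir30a hairpin row were at or near 0 and did not pass the filter.

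Among 149 other mature microRNAs with a mean of at least 100 CPM, the 5 whose log2 CPM most resembled that of the summed 5p members over the 10 libraries were miR-194-5p (r = 0.977), miR-16-5p (0.937), miR-192-5p (0.935), miR-142a-5p (0.932) and miR-340-5p (0.92). The summed 5p members themselves ran from 29657 CPM in wt non-stimulated replicate 2 to 88915 CPM in replicate 1. These r values describe libraries that share depth and scaling, and were not tested.

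The families set beside miR-30 were not called with all libraries. Both miR-26 members had LPS estimates below 0 (median log2 fold change -0.89, adjusted p of 0.316 and 0.326 in edgeR), and the 3 miR-29 members had a median of -0.07. Without both second non-stimulated libraries, miR-26a-5p fell by 1.59 (edgeR adjusted p = 0.00334) and miR-26b-5p fell by 1.61 (adjusted p = 0.00513) on the log2 scale with LPS. In that fit 204 of 720 features (28.3%) were called, and 0 of the 3 miR-29 members (median -0.58). In Eµ-deficient against wt cells, the medians were -0.16 for miR-26 and -0.19 for miR-29, against -0.69 for the miR-30 members and -0.17 for all features, and without both second libraries they were -0.13 and -0.12, with 0 called.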

How the data were processed

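Small RNA of 10 libraries was analysed. The deposited values are whole-number read counts per feature, without normalization by the authors. The submitters' processing notes name cutadapt 1.2.1, Bowtie2 and mm10, and the counting program and the handling of multiple matches are not given in the sources used here. The paper names no test for these counts.

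The microRNA class was fitted with edgeR 4.0.16 in R 4.3.3, with TMM scaling, filterByExpr by group and the two-sided quasi-likelihood F-test. p-values were adjusted over all features tested (Benjamini-Hochberg, threshold 0.05). The 8 wt and 3'RR-deficient libraries were fitted together, and all 10 for the Eµ comparison. p-values measure the spread between pools. Ratios used counts plus 0.5. Named were all members, a list of other miR-30 arms, miR-26 and miR-29, and the 5 most alike microRNAs. Alternatives were DESeq2 1.42.0, other scalings and filters, mature microRNAs alone, GC correction (loess), replicate blocks and leaving out libraries. The members and lists were chosen with earlier results of these data known. In simulated data, true changes of 1 and 2 on the log2 scale were called in 2% and 18% of cases for LPS (720 features). For Eµ (988 features) they were called in 0% and 10%. Each rate is over 100 altered features and was not worked out for the miR-30 members alone.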

Additional observations from a re-analysis of the deposited data

How the results depend on the processing

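No member was called in the 8 comparisons, and of 155 counts of called members under alternatives 146 stayed at 0. Without both second non-stimulated libraries, 2 members were called with LPS and 1 in Eµ-deficient cells, and the log2 fold changes with LPS of miR-30a-5p, miR-30a-3p and miR-30e-5p turned to -0.29, -0.27 and -0.037. The ratio of miR-30a-5p to miR-30a-3p then turned to -0.049 and that of miR-30b-5p to miR-30d-5p to -0.50. With all 10 libraries, miR-30a-5p and miR-30a-3p had -0.10 and -0.22. The labels do not say what a replicate number shares, and the deviations of same-numbered libraries correlated in non-stimulated cells (r = 0.666) and otherwise at -0.283 to 0.111, so same-numbered libraries deviated together without LPS, but not every pair was above 0.1, and the numbers were not taken as pairing the samples. A replicate block over all libraries called 0 members (beside 21.7% of all features for LPS and 1.52% for Eµ) and turned miR-30b-5p to 0.26 with LPS and to -0.13 in Eµ-deficient cells. A replicate block within culture condition called 1 of 7 members with LPS (miR-30e-5p, log2 fold change 1.52, adjusted p = 1.18e-05 in edgeR) beside 46.7% of all features, 1 in wt alone (25.3%) and 1 in 3'RR-deficient cells alone (25.4%). In Eµ-deficient cells it called 4 of 7, all lower, beside 10.6% of all features, namely miR-30a-5p (-0.93, edgeR adjusted p = 0.0343), miR-30a-3p (-1.40, 0.00126), miR-30e-5p (-1.02, 0.0153) and miR-30e-3p (-1.17, 0.00613). With LPS, the block gave miR-30b-5p 0.26. With GC correction added to that block, which covers 5 members, LPS called 3 beside 46.5% of all features, namely miR-30e-5p (0.94, edgeR adjusted p = 0.00119), miR-30c-5p (-0.66, 0.0255) and miR-30e-3p (-0.58, 0.0473). It called 1 in wt (29.2%) and 0 in 3'RR-deficient cells (26.6%), where the call under the block alone was thus lost, and 2 for Eµ (66 of 657 features), namely miR-30a-3p (-1.25, 0.0058) and miR-30e-3p (-0.99, 0.0338). Why the block moved miR-30e-5p was not tested. Leaving out each library in turn called 0 members throughout, beside 77 to 161 features with LPS and 1 to 33 for Eµ. For LPS, miR-30b-5p then ranged from -0.89 to 0.41, miR-30d-5p from -0.56 to 0.0035, miR-30a-5p from -0.14 to 0.55, miR-30a-3p from -0.16 to 0.31, miR-30c-5p from -1.01 to -0.026, miR-30e-5p from 0.34 to 1.62 and miR-30e-3p from -0.65 to -0.18. For Eµ, miR-30a-5p ranged from -1.07 to -0.079, miR-30d-5p from -0.84 to -0.029, miR-30e-3p from -1.23 to -0.59, miR-30b-5p from 0.015 to 1.32, miR-30c-5p from 0.16 to 1.17, miR-30a-3p from -1.63 to -0.62 and miR-30e-5p from -1.38 to 0.25. Of the minor arms, miR-30d-3p and miR-30c-2-3p had as few as 3 counts in a library. What depth limits was not tested.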
